A study of Mus musculus with 12 samples.

Results

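The 9 genes described here are Fdx1, Lias, Lipt1, Dld, Dlat, Pdha1, Pdhb, Mtf1 and Cdkn2a, which belong to copper-dependent cell death (cuproptosis) and to the lipoylated dehydrogenase that this death acts on. They were taken by gene symbol and are 9 of the 24532 genes in the deposited table of liver RNA counts. RNA of 12 livers was sequenced, 4 mice per group, all of the strain C57BL/6x129S6/SvEv and 20 wk of age. KO-Drug mice were Atp7b-/- and ate a liver X receptor (LXR) agonist, KO mice were Atp7b-/- with no agonist named, and Het mice, heterozygous by their genotype label, were the study's controls. The labels do not give the sex, the part of Atp7b that the allele lacks, a tissue-specific driver, or the agonist's name, dose and duration. Whole liver was sequenced, so that fewer cells of a type and less RNA per cell cannot be told apart.

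ATP7B exports copper from hepatocytes into bile, and its loss lets copper build up in the liver, as in Wilson disease. Lipoate is a sulfur-bearing cofactor that is made on the enzyme itself in mitochondria: an octanoyl chain from mitochondrial fatty acid synthesis is attached to a carrier protein, lipoyl synthase (LIAS) inserts the sulfur atoms with electrons and iron-sulfur clusters supplied by other proteins, and LIPT1 passes the finished group to the dehydrogenase complexes. In cuproptosis, described in cultured human cells, the ferredoxin FDX1 reduces copper and is needed for lipoylation, and copper binds the lipoyl arms of DLAT, a core subunit of pyruvate dehydrogenase, which then aggregates.

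MTF1 is the transcription factor that switches on metallothionein genes through metal response elements, and the promoter letters of the members were therefore searched for the core of that element, TGCACNC or TGCGCNC, on both strands. Each window ran from 250 bases before to 50 bases after a transcript start as that table gives it (RefSeq, GRCm38.p6), and for Mt1, Pdhb and the further windows of Lipt1 and Cdkn2a this start lies inside the gene's annotated span. Of the mouse promoters in the table, 25.7% of 32851 hold at least 1 match. Among the 8 members that could be tested for expression, 2 had matches, Fdx1 (2) and Dlat (1), which is near that share of all promoters. The windows of Fdx1 and Dlat are shown with that of Mt1, a metallothionein gene and known MTF1 target with 3 matches. Capitals mark the matches on either strand.
Fdx1, chr9:51963553-51963852, minus strand: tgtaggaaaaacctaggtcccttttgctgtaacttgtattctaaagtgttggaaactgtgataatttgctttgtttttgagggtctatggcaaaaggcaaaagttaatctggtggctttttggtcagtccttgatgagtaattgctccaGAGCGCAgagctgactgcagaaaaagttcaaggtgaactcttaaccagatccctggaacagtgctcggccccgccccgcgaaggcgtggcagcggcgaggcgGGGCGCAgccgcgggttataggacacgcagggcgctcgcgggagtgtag
Dlat, chr9:50659731-50660030, minus strand: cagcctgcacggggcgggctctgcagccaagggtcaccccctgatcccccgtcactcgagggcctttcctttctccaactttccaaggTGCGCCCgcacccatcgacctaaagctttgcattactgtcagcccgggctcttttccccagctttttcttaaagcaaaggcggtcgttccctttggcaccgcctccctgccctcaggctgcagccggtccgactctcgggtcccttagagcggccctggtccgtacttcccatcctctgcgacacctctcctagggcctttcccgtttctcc
Mt1, chr8:94178839-94179138, plus strand: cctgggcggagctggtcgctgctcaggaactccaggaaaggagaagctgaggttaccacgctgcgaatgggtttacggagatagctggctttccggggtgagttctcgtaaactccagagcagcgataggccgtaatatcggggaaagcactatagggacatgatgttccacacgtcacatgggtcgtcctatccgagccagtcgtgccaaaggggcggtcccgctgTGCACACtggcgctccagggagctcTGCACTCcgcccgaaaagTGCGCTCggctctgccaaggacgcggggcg
The windows of Lias, Lipt1, Dld, Pdha1, Pdhb and Mtf1 held no match. In 1 of the 2 windows of Cdkn2a there were 2 matches, which overlap each other on opposite strands. The NRF1 motif (held by 0.971% of promoters) and the ERR letters TCAAGGTCA (0.423%) were found in none of the members' windows. A match is a run of letters and was not tested as a binding site.

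Atp7b itself was low in every library labelled Atp7b-/-. It had 1.31, 3.49, 1.27 and 2.81 CPM in KO-Drug livers, 1.76, 1.68, 2.71 and 2.20 CPM in KO livers, and 9.90, 13.1, 12.2 and 16.2 CPM in Het livers, where CPM is the count per 1e6 counts after scaling between libraries by the trimmed mean of M values (TMM). Library totals lay between 16535938 and 28329751 counts. KO 5 and KO 6 stood apart in sex-linked genes. Xist reached 81.8 CPM in the first and 17.8 CPM in the second but no more than 0.425 CPM in any other library, while Ddx3y had 0.379 and 64.4 CPM there. Results were recomputed without both.

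All 8 hepatocyte markers checked were expressed, and their sum was 62254.5 to 84448.5 CPM in KO-Drug livers, 34052 to 60719.7 CPM in KO livers and 66002 to 119110 CPM in Het livers. In KO against Het livers, 5 of these 8 markers were lower, 10 of 10 macrophage markers were higher and 6 of 6 markers of dividing cells were higher. The macrophage sum was 526 to 1188 CPM in KO-Drug, 1118 to 2510.5 CPM in KO and 461 to 629 CPM in Het livers. The dividing-cell sum was 56.9 to 140.2 CPM in KO-Drug, 108 to 177 CPM in KO and 5.16 to 14.7 CPM in Het livers. T and NK cell markers summed to at most 12.4 CPM and B cell markers to at most 4.39 CPM in any library, and Ly6g, a neutrophil marker, was at 0 in all KO-Drug and Het livers. Called higher in KO against Het livers were also 5 of 5 tested T and NK cell, 3 of 3 neutrophil, 3 of 7 stellate and matrix, 2 of 6 cholangiocyte, 2 of 6 endothelial and 1 of 2 tested B cell markers. KO-Drug livers, set against KO livers, had 7 of 10 macrophage, 3 of 5 T and NK cell, 2 of 2 B cell, 4 of 7 stellate and matrix, 2 of 6 cholangiocyte, 1 of 6 endothelial and 1 of 6 dividing-cell markers called lower, and 2 of 8 hepatocyte markers called higher. Over all genes, 23.0% were called higher and 17.7% lower in KO against Het livers, and 8.80% higher and 11.0% lower in KO-Drug against KO livers. Of 3 tested neutrophil markers, 0 were called between KO-Drug and KO livers. In KO-Drug against Het livers 5 of 6 dividing-cell markers were still called higher, beside 13.0% of all genes. Marker shifts thus occurred in both comparisons, but not every shift seen in KO livers was reversed in KO-Drug livers. The part of the marker shifts in the members' changes was not tested.

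Fdx1 RNA was lower in KO livers than in Het livers and higher in KO-Drug than in KO livers, and it was the member with the largest change in both comparisons. Pdha1 and Pdhb, the subunits of the first enzyme of pyruvate dehydrogenase, changed in the same directions by smaller amounts, where the fall of Pdhb turns under another scaling given below. Dlat was higher in KO-Drug livers than in both other groups and was not called between KO and Het livers. Lias and Mtf1 showed no called change in any comparison, and Cdkn2a was almost without counts. Under the other scaling given below, Lias and Dlat were called higher in KO than in Het livers and only Fdx1 was called lower. Under it, only Fdx1 was called higher in KO-Drug than in KO livers.

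A change was called at an adjusted p under 0.05 in edgeR's quasi-likelihood test with Benjamini-Hochberg adjustment over all 13379 genes tested. Of the 8 members tested, 4 were called lower and 0 higher in KO against Het livers, where 40.7% of all genes were called (23.0% higher and 17.7% lower). In KO-Drug against KO livers 4 were called higher and 0 lower, with 19.8% of all genes called (8.80% higher and 11.0% lower). In KO-Drug against Het livers 1 was called higher, with 21.4% of all genes called (13.0% higher and 8.45% lower). The median log2 change of the 8 members was -0.40, 0.54 and -0.0029 in these comparisons in turn, and that of all genes was 0.02, -0.02 and 0.00. The groups did not overlap for 4 members in KO against Het livers, all lower, and for 39.3% of all genes (22.2% higher and 17.1% lower). They did not overlap for 4 members in KO-Drug against KO livers, all higher, and for 23.9% of all genes (11.4% higher and 12.5% lower). In KO-Drug against Het livers this held for 1 member, higher, and for 24.6% of all genes (13.6% higher and 11.0% lower). KO livers enter the first comparison as the numerator and the second as the denominator, so the opposite signs are not independent of each other.

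The sign of a small change depends on how libraries are scaled. TMM sets the typical gene to no change. Dividing by total counts instead put the median log2 change of all genes at 0.54 in KO against Het, at -0.36 in KO-Drug against KO and at 0.18 in KO-Drug against Het livers. The share of called genes that were higher was 56.5%, 44.3% and 60.6% under TMM and 93.8%, 8.32% and 83.0% under total counts. Among the members, total counts and deposited FPKM each left 2 called higher (Lias and Dlat) and 1 lower (Fdx1) in KO against Het livers, and 1 called higher (Fdx1) in KO-Drug against KO livers. Each change below is therefore a change relative to the typical gene of the liver, and a direction that turns under total counts is named beside it.

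**Figure D1:**
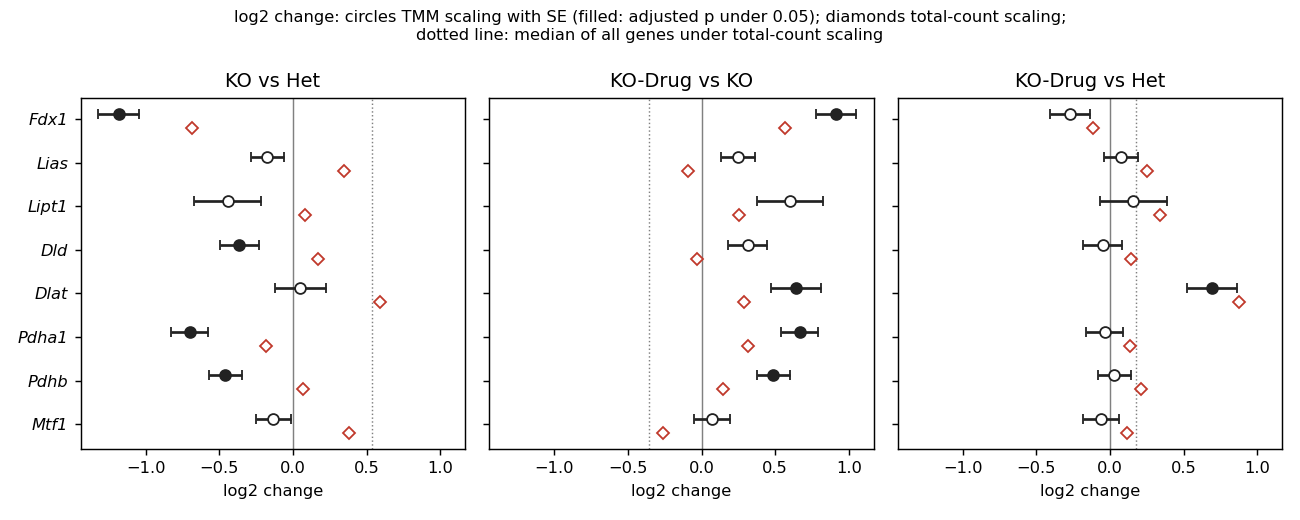
The log2 change of the 8 tested members is plotted for each comparison, as circles with their SE under TMM scaling (filled where the adjusted p is under 0.05) and as diamonds under total-count scaling, with the dotted line at the median of all genes under total counts. Fdx1 lies farthest from 0 in KO against Het (-1.18) and in KO-Drug against KO livers (0.91), and only Dlat is called in KO-Drug against Het livers (0.69).

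Fdx1 (chromosome 9, 51943023 to 51963602, minus strand; GRCm38.p6) encodes the mitochondrial ferredoxin that hands electrons to lipoyl synthase and to steroid-forming P450 enzymes. Its level was 69.9, 82.2, 73.9 and 66.4 CPM in KO-Drug livers, 37.6, 38.0, 42.1 and 37.4 CPM in KO livers, and 116, 83.5, 77.0 and 76.3 CPM in Het livers. Every KO liver was below every other liver, while KO-Drug and Het livers overlapped. Fdx1 averaged 38.8 ± 2.22 CPM in KO and 88.1 ± 18.7 CPM in Het livers (SD, n = 4 each), a log2 change of -1.18 (SE 0.14, adjusted p = 4.27e-05, edgeR) or 2.27-fold lower. It averaged 73.1 ± 6.79 CPM in KO-Drug livers, a log2 change of 0.91 against KO livers (SE 0.14, adjusted p = 0.00151, edgeR) or 1.88-fold higher. Against Het livers the KO-Drug change was -0.27 (SE 0.14, adjusted p = 0.187, edgeR), which was not called.

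The fall and the rise of Fdx1 were called under all 21 alternatives, total counts and deposited FPKM included. The log2 change lay between -1.27 and -0.63 in KO against Het livers and between 0.55 and 0.99 in KO-Drug against KO livers. Without KO 5 and KO 6 the KO against Het change was -1.27.

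Lias (chromosome 5, 65391497 to 65410423, plus strand) encodes the lipoyl synthase that FDX1 serves. It had 41.6, 44.3, 40.9 and 35.1 CPM in KO-Drug livers, 31.4, 32.3, 36.8 and 35.7 CPM in KO livers, and 41.8, 40.7, 38.8 and 32.2 CPM in Het livers. The ranges of all 3 groups overlapped. Its log2 change was -0.17 in KO against Het livers (SE 0.11, adjusted p = 0.244, edgeR), a sign that turned to a called 0.34 under total counts. It was 0.25 in KO-Drug against KO livers (SE 0.11, adjusted p = 0.141, edgeR) and turned to -0.09 under total counts. Lias shares its span and strand with the annotated transcript 1110003F10Rik, whose reads could be counted in it.

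Lipt1 (chromosome 1, 37871738 to 37876228, plus strand) encodes the transferase that loads lipoate onto the dehydrogenases, and was the lowest in counts of the 8, with 88 to 264 reads per library. It had 6.01, 10.8, 8.44 and 7.49 CPM in KO-Drug livers, 5.31, 4.11, 7.71 and 4.39 CPM in KO livers, and 7.17, 8.37, 7.41 and 6.43 CPM in Het livers. KO 5 was above most livers of the other groups and the remaining KO livers were below all of them. The log2 change was -0.44 in KO against Het livers (SE 0.23, adjusted p = 0.136, edgeR) and 0.60 in KO-Drug against KO livers (SE 0.23, adjusted p = 0.0782, edgeR), neither of them called, and the first turned to 0.084 under total counts. Without KO 5 both passed, with log2 changes of -0.66 and 0.82. The gene overlaps Mitd1 on the other strand.

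**Figure D2:**
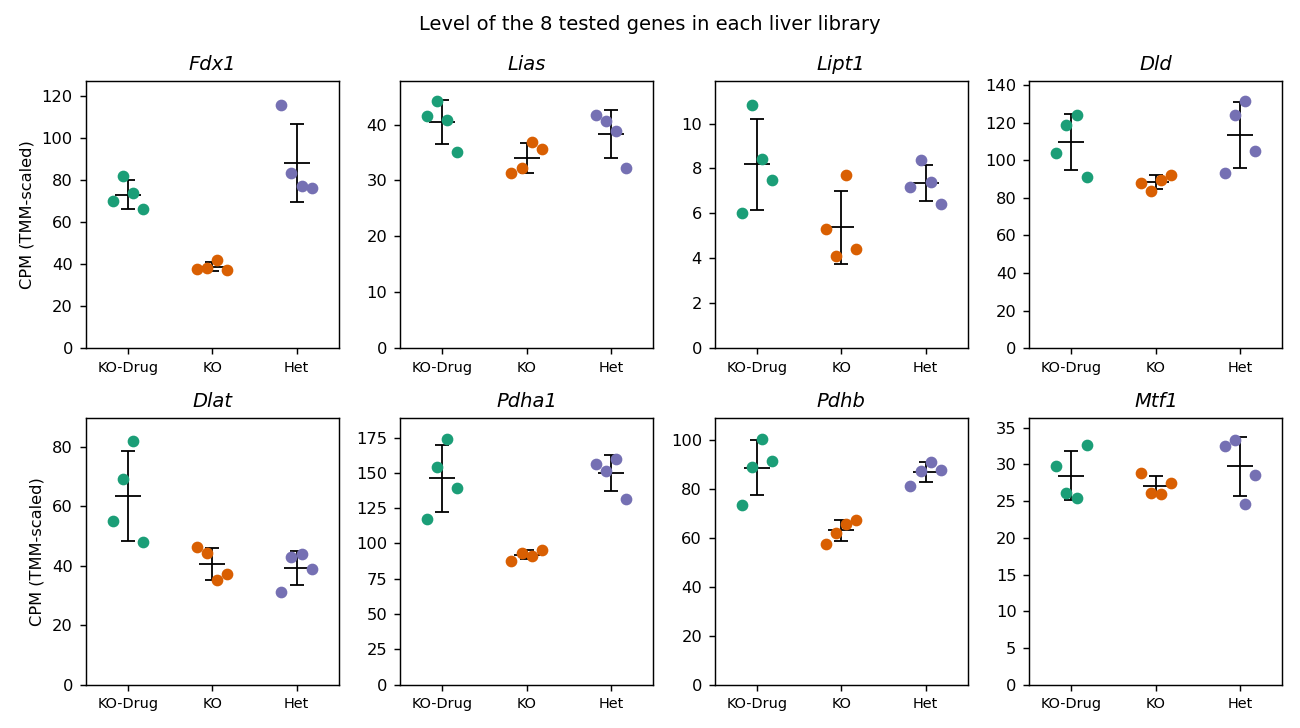
CPM of the 8 tested members is plotted for each library, with KO-Drug, KO and Het livers from left to right, points for libraries and bars for the mean and SD of 4. The KO points of Fdx1, Pdha1 and Pdhb lie below all Het and KO-Drug points, and the KO-Drug points of Dlat lie above all KO and Het points.

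Pyruvate dehydrogenase turns pyruvate into acetyl-CoA. Pdha1 and Pdhb encode the alpha and beta subunits of its E1 enzyme, Dlat the lipoylated E2 core, and Dld the E3 enzyme that re-oxidises the lipoyl arm and is shared with the other lipoylated complexes. Pdha1 (chromosome X, 160122219 to 160138430, minus strand) had 117, 154, 174 and 139 CPM in KO-Drug livers, 87.9, 93.5, 91.0 and 95.6 CPM in KO livers, and 156, 151, 160.1 and 131 CPM in Het livers. All 4 KO livers were below the lowest of the other 8. Pdha1 in KO livers was 1.63-fold below Het livers, a log2 change of -0.70 (SE 0.13, adjusted p = 0.000914, edgeR), and 1.59-fold higher in KO-Drug than in KO livers, a log2 change of 0.67 (SE 0.13, adjusted p = 0.00424, edgeR). In KO-Drug against Het livers the change was -0.04 (SE 0.13, adjusted p = 0.882, edgeR), which turned to 0.14 under total counts. The Pdha1 calls passed in 19 and 18 of the 21 alternatives, and total counts and deposited FPKM ended both, with -0.18 in KO against Het livers under total counts. Pdha1 overlaps Map3k15 on the other strand.

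Pdhb (chromosome 14, 8165991 to 8173303, minus strand) had 73.5, 89.0, 100.4 and 91.5 CPM in KO-Drug livers, 57.5, 62.1, 65.6 and 67.3 CPM in KO livers, and 81.2, 87.3, 90.9 and 87.6 CPM in Het livers. As for Pdha1, no KO liver reached any liver of the other groups. The log2 change was -0.46 in KO against Het livers (SE 0.11, adjusted p = 0.00539, edgeR), which turned to 0.06 under total counts and was then not called. In KO-Drug against KO livers it was 0.49 (SE 0.11, adjusted p = 0.00937, edgeR), a call lost under total counts, and it was 0.03 in KO-Drug against Het livers (SE 0.11, adjusted p = 0.886, edgeR).

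Dlat (chromosome 9, 50634633 to 50659780, minus strand, 1.28 Mb from Fdx1) had 55.0, 69.3, 81.9 and 48.1 CPM in KO-Drug livers, 46.2, 44.4, 35.1 and 37.2 CPM in KO livers, and 31.3, 42.9, 44.0 and 39.0 CPM in Het livers. The lowest KO-Drug liver was above the highest liver of both other groups, and KO and Het livers overlapped. Dlat was 1.62-fold higher in KO-Drug than in Het livers, a log2 change of 0.69 (SE 0.17, adjusted p = 0.0116, edgeR), and this call held in all 21 alternatives, between 0.55 and 0.88. It was 1.56-fold higher in KO-Drug than in KO livers, a log2 change of 0.64 (SE 0.17, adjusted p = 0.0202, edgeR). That call held in 13 of 21 alternatives and was lost under total counts (0.29), without KO 5 and KO 6 (0.53), and without KO 5, KO 6, KO-Drug 2 or KO-Drug 3 alone. In KO against Het livers the change was 0.05 (SE 0.17, adjusted p = 0.836, edgeR), and it became a called 0.59 under total counts.

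Dld (chromosome 12, 31331562 to 31351471, minus strand) had 104, 119, 124 and 91.4 CPM in KO-Drug livers, 87.8, 83.4, 89.8 and 92.2 CPM in KO livers, and 93.4, 124, 132 and 105 CPM in Het livers. KO and Het livers did not overlap, by a gap of about 1 CPM. The log2 change of -0.36 in KO against Het livers (SE 0.13, adjusted p = 0.0437, edgeR) lay next to the threshold and passed in 8 of 21 alternatives. It was lost without Het 2, Het 3, KO-Drug 1 or any 1 of the 4 KO libraries, and turned to 0.17 under total counts. In KO-Drug against KO livers the change was 0.31 (SE 0.13, adjusted p = 0.117, edgeR) and in KO-Drug against Het livers -0.05 (SE 0.13, adjusted p = 0.836, edgeR), neither of them called, and they turned to -0.033 and 0.14 under total counts.

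Mtf1 (chromosome 4, 124802549 to 124849800, plus strand) had 29.8, 26.2, 25.4 and 32.7 CPM in KO-Drug livers, 28.8, 26.1, 26.03 and 27.5 CPM in KO livers, and 32.5, 33.3, 24.5 and 28.6 CPM in Het livers. The groups overlapped in all comparisons. The log2 changes were -0.13 in KO against Het, 0.07 in KO-Drug against KO and -0.06 in KO-Drug against Het livers, each with an SE of 0.12 and none called (adjusted p = 0.4, 0.715 and 0.775, edgeR), and each turned sign under total counts (0.38, -0.26 and 0.12). Its span overlaps 1110065P20Rik on the other strand and the rRNA gene n-R5s192 on the same strand, whose reads could be counted in it.

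Cdkn2a (chromosome 4, 89274473 to 89294619, minus strand), which encodes the cell cycle inhibitors INK4A and ARF, had 4 counts in KO 4 (0.187 CPM) and 0 in the other 11 libraries. A count of 0 allows up to 3 counts, or 0.0876 to 0.165 CPM per library, for counting error only. It did not pass the filter on low counts and was not tested.

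Levels of different genes can be compared on the deposited FPKM, which divides by the length of the gene model. In KO-Drug livers the medians ran from Pdhb (47.0 FPKM) through Fdx1 (44.1), Pdha1 (40.2), Dld (38.0), Dlat (12.1), Lias (10.9) and Lipt1 (3.84) to Mtf1 (2.89). In KO livers the FPKM medians were 43.0 for Pdhb, 38.1 for Dld, 31.5 for Pdha1, 30.8 for Fdx1, 11.6 for Lias, 9.91 for Dlat, 3.502 for Mtf1 and 3.03 for Lipt1. In Het livers they were 42.2 for Fdx1, 39.8 for Pdhb, 33.9 for Pdha1, 33.1 for Dld, 8.57 for Lias, 6.66 for Dlat, 3.15 for Lipt1 and 2.65 for Mtf1. The E1 and E3 genes and Fdx1 thus made an upper tier, Lias and Dlat a middle tier and Lipt1 and Mtf1 a lower tier, and in each group the tiers did not overlap. Within the upper tier of KO-Drug and of Het livers each neighbour overlapped the next.

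The place of Fdx1 within a library does not depend on scaling between libraries. Among the 8 members by FPKM, Fdx1 ranked 1, 1, 3 and 2 in KO-Drug livers, 4, 4, 3 and 4 in KO livers, and 1 in each of the 4 Het livers. In KO livers Pdhb and Dld, which ranked 1 and 2 in all 4, stood above it without overlap between Dld and the lower pair. Dlat lay below Lias in all 4 Het livers, with no overlap, and their ranges overlapped in KO-Drug and KO livers.

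**Figure D3:**
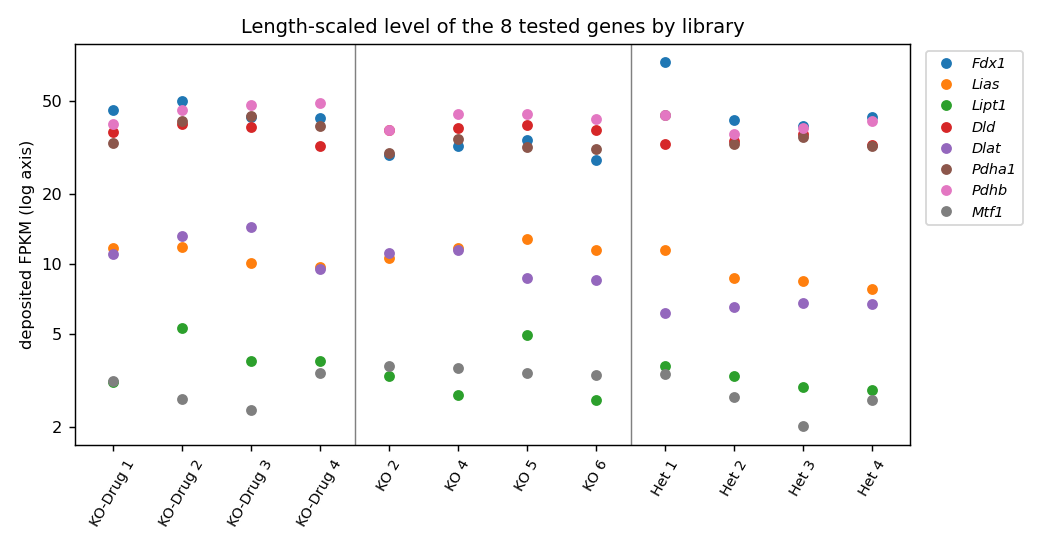
Deposited FPKM of the 8 tested members is plotted on a log axis for each library, with KO-Drug, KO and Het livers from left to right. Fdx1 is the uppermost member in all 4 Het livers and ranks 3 or 4 in KO livers, and Dlat meets Lias in KO-Drug and KO livers but lies below it in Het livers.

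Ratios of counts between members are also free of scaling. The ratio of Lias to Fdx1 was 0.595, 0.539, 0.553 and 0.529 in KO-Drug livers, 0.833, 0.849, 0.874 and 0.954 in KO livers, and 0.361, 0.488, 0.504 and 0.422 in Het livers. No group overlapped another: KO livers had the most Lias reads per Fdx1 read, and KO-Drug livers lay between the others. The log2 ratio differed by 0.99 in KO against Het, by -0.66 in KO-Drug against KO and by 0.33 in KO-Drug against Het livers. Each gave the smallest two-sided p that an exact permutation test of 4 against 4 allows, 0.0286, and an adjusted p of 0.0858 over the 15 ratio comparisons, which does not pass. Leaving out any 1 library kept the 3 differences at 0.90 to 1.06, -0.70 to -0.62 and 0.24 to 0.40.

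The ratio of Dlat to Pdhb, E2 against E1, was 0.748, 0.778, 0.816 and 0.525 in KO-Drug livers, 0.802, 0.715, 0.534 and 0.553 in KO livers, and 0.386, 0.492, 0.484 and 0.445 in Het livers. Every Atp7b-/- liver, fed the agonist or not, was above every Het liver. The log2 ratio differed by 0.51 in KO against Het livers and by 0.65 in KO-Drug against Het livers (exact permutation p = 0.0286 each, adjusted 0.0858), and by 0.14 in KO-Drug against KO livers (exact permutation p = 0.543). Among KO livers, KO 2 and KO 4 had higher ratios than the pair in which Xist was counted. The Pdha1 to Pdhb ratio, alpha to beta subunit, overlapped between groups in all 3 comparisons (adjusted exact permutation p = 0.184 in KO against Het livers), as did Dld to Pdhb and Lipt1 to Lias.

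**Figure D4:**
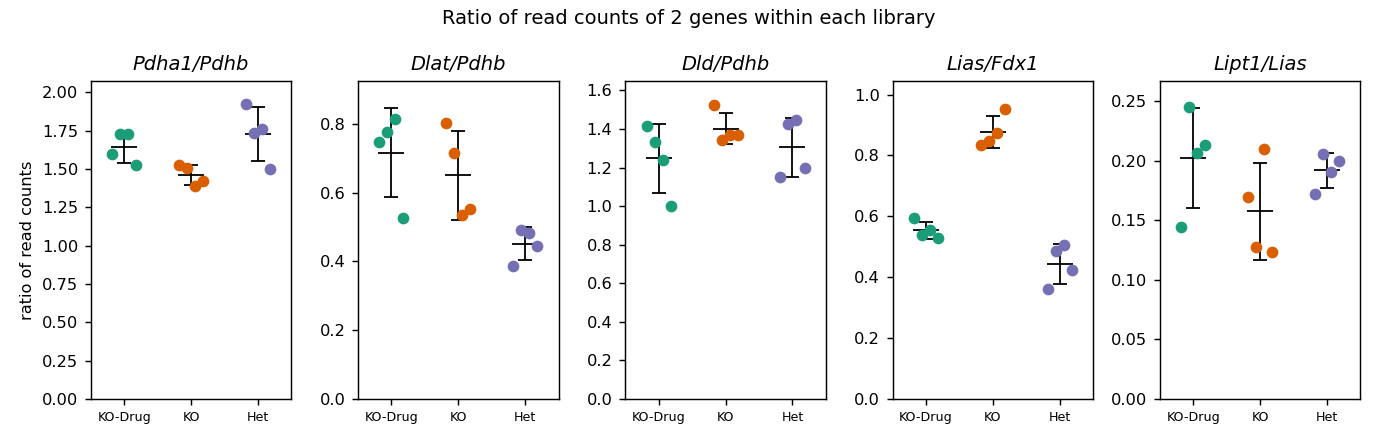
The ratio of read counts of 2 members within each library is plotted for 5 pairs, with KO-Drug, KO and Het livers from left to right, points for libraries and bars for the mean and SD of 4. The Lias to Fdx1 points form 3 separate groups, and the Dlat to Pdhb points of all 8 Atp7b-/- livers lie above the 4 Het points.

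Each member was also set against the mean log2 CPM of 14 citric acid cycle genes of the same library. Fdx1 lay at -1.67 ± 0.158 in KO and -0.87 ± 0.313 in Het livers (SD, n = 4 each), Pdha1 at -0.43 ± 0.0789 in KO and -0.09 ± 0.0804 in Het livers, and Dlat at -1.61 ± 0.279 in KO and -2.02 ± 0.184 in Het livers. These 3 did not overlap between groups (exact permutation p = 0.0286, adjusted 0.137 over 24 comparisons). Dld and Pdhb differed by 0.01 and -0.10 between KO and Het livers on this scale (exact permutation p = 0.943 and 0.143). In KO-Drug against KO livers Fdx1 was higher by 0.49, and in KO-Drug against Het livers Dlat was higher by 0.62, both without overlap (exact permutation p = 0.0286, adjusted 0.137).

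The steps around the members were followed in lists of known pathway genes, counted here without the members and under TMM scaling. Over all genes, 40.7% were called in KO against Het livers (23.0% higher and 17.7% lower). In KO-Drug against KO livers 19.8% were called (8.80% higher and 11.0% lower). The counts of each list below stand beside these shares and were not tested against them. Of 14 other genes for lipoate synthesis, attachment and the iron-sulfur supply, 5 were called lower and 0 higher in KO against Het livers (median log2 change -0.25), and 4 were called higher and 0 lower in KO-Drug against KO livers (median 0.32). Isca1, a cluster carrier, had log2 changes of -0.63 in KO against Het livers (adjusted p = 0.000603, edgeR) and 0.44 in KO-Drug against KO livers (adjusted p = 0.0126, edgeR). Bola3, Isca2 and Lyrm4 were also called lower in KO livers.

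Of 6 genes of mitochondrial fatty acid synthesis, which supplies the octanoyl chain, 2 were called lower in KO against Het livers, beside 17.7% of all genes. In KO-Drug against KO livers 2 were called higher, beside 8.80% of all genes. With 1 library left out the counts of this list were 0 to 2 (0 without KO 4 or KO 6) and 1 to 4 (4 without Het 1). With animal number as a replicate block, under which KO 5 and KO 6 add nothing to either comparison, both counts were 0. Mcat, the malonyl transferase, had log2 changes of -0.36 (adjusted p = 0.0349, edgeR) and 0.45 (adjusted p = 0.026, edgeR). Mecr, the last reductase of the cycle, was called only in KO against Het livers (-0.33, adjusted p = 0.0331, edgeR), and both Mcat and Mecr turned sign there under total counts (0.14 and 0.20). The KO against Het calls held in 14 of 21 alternatives for Mcat and 12 for Mecr. Oxsm, the condensing enzyme, averaged 44.4 CPM in KO-Drug, 27.9 CPM in KO and 31.3 CPM in Het livers and was called higher in KO-Drug than in KO livers (0.67, adjusted p = 0.00374, edgeR) and than in Het livers (0.50, adjusted p = 0.0113, edgeR). Ndufab1, the acyl carrier protein, was not called (-0.27 and 0.42, adjusted p = 0.173 and 0.0709, edgeR), and its KO against Het change turned to 0.23 under total counts.

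Of 12 other subunits of the lipoylated complexes, 3 were called lower and 1 higher in KO against Het livers, beside 17.7% and 23.0% of all genes. In KO-Drug against KO livers 5 were called higher and 1 lower, beside 8.80% and 11.0% of all genes. Gcsh, the lipoylated carrier of the glycine cleavage system, averaged 107 CPM in KO-Drug, 65.3 CPM in KO and 113 CPM in Het livers. Its log2 changes were -0.80 in KO against Het livers (SE 0.14, adjusted p = 0.000896, edgeR) and 0.72 in KO-Drug against KO livers (SE 0.14, adjusted p = 0.00524, edgeR). Ogdhl, a relative of the oxoglutarate dehydrogenase E1 enzyme, was at 0 counts in all KO-Drug and Het livers and at 0.821, 0.653, 6.42 and 3.30 CPM in KO livers. That is at least 71.9-fold higher than in Het livers against a floor of 3 counts over the group, at least 40.9-fold without KO 5, and at least 18.957-fold without KO 5 and KO 6. Ogdhl is the gene of this list called higher in KO against Het and lower in KO-Drug against KO livers. It passed the filter on low counts through the KO livers alone, and both calls rest on the same KO values.

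Among 9 genes for pyruvate entry and the kinases and phosphatases of pyruvate dehydrogenase, 2 were called higher and 4 lower in KO against Het livers. The shares over all genes were 23.0% and 17.7%. In KO-Drug against KO livers 4 were called higher and 1 lower, beside 8.80% and 11.0% of all genes. The kinases, which phosphorylate and switch off PDHA1, were called in both directions. Pdk4 had 29.6, 23.6, 47.7 and 28.2 CPM in KO-Drug livers, 19.9, 60.9, 36.2 and 47.2 CPM in KO livers, and 8.51, 3.95, 7.83 and 5.66 CPM in Het livers. It was higher in KO than in Het livers by 2.66 (log2; SE 0.35, adjusted p = 9.31e-05, edgeR) and was not called between KO-Drug and KO livers (-0.34, adjusted p = 0.484, edgeR). Pdk1 averaged 176 CPM in KO-Drug, 48.4 CPM in KO and 139 CPM in Het livers, with log2 changes of -1.53 in KO against Het livers (adjusted p = 0.00035, edgeR) and 1.86 in KO-Drug against KO livers (adjusted p = 0.000673, edgeR). Pdk2 had log2 changes of -0.82 and 1.26 in the same comparisons (adjusted p = 0.00027 and 0.000207, edgeR).

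Of 14 citric acid cycle genes, 8 were called lower and 0 higher in KO against Het livers (median -0.45). The shares over all genes were 17.7% and 23.0%. In KO-Drug against KO livers 7 were called higher and 0 lower (median 0.46), beside 8.80% and 11.0% of all genes. Sdhb, the iron-sulfur subunit of succinate dehydrogenase, averaged 263 CPM in KO-Drug, 145 CPM in KO and 287 CPM in Het livers. Its log2 changes were -0.99 in KO against Het livers (SE 0.14, adjusted p = 0.000148, edgeR) and 0.86 in KO-Drug against KO livers (SE 0.14, adjusted p = 0.0018, edgeR). Suclg1 and Sucla2, subunits of succinyl-CoA ligase, had log2 changes of -0.66 and -0.69 in KO against Het livers (adjusted p = 0.00105 and 0.00133, edgeR) and 0.85 and 0.50 in KO-Drug against KO livers (adjusted p = 0.00112 and 0.0185, edgeR).

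These list counts are relative to the typical gene. Under total counts, members included, the citric acid cycle list had 4 called higher and 1 lower in KO against Het livers, the lipoate list 4 higher and 2 lower, and the lipoylated complexes 4 higher and 1 lower. The same lists then had, in KO-Drug against KO livers, 2, 1 and 1 called higher and 0, 0 and 1 lower. Their median log2 changes in KO against Het livers turned to 0.07, 0.24 and 0.14, beside 0.54 for all genes. In KO-Drug against KO livers these medians were 0.11, -0.013 and 0.05, beside -0.36 for all genes, so that of the lipoate list turned there too. Pdk1, Pdk4 and Sdhb kept their direction and call in KO against Het livers in all 21 alternatives. Those of Isca1, Gcsh, Pdk2, Suclg1 and Sucla2 held in 19, and total counts and deposited FPKM ended them, with Gcsh at -0.25 on FPKM. Total counts and FPKM also ended the KO-Drug against KO calls of Isca1, Mcat, Oxsm, Gcsh and Sucla2.

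**Figure D5:**
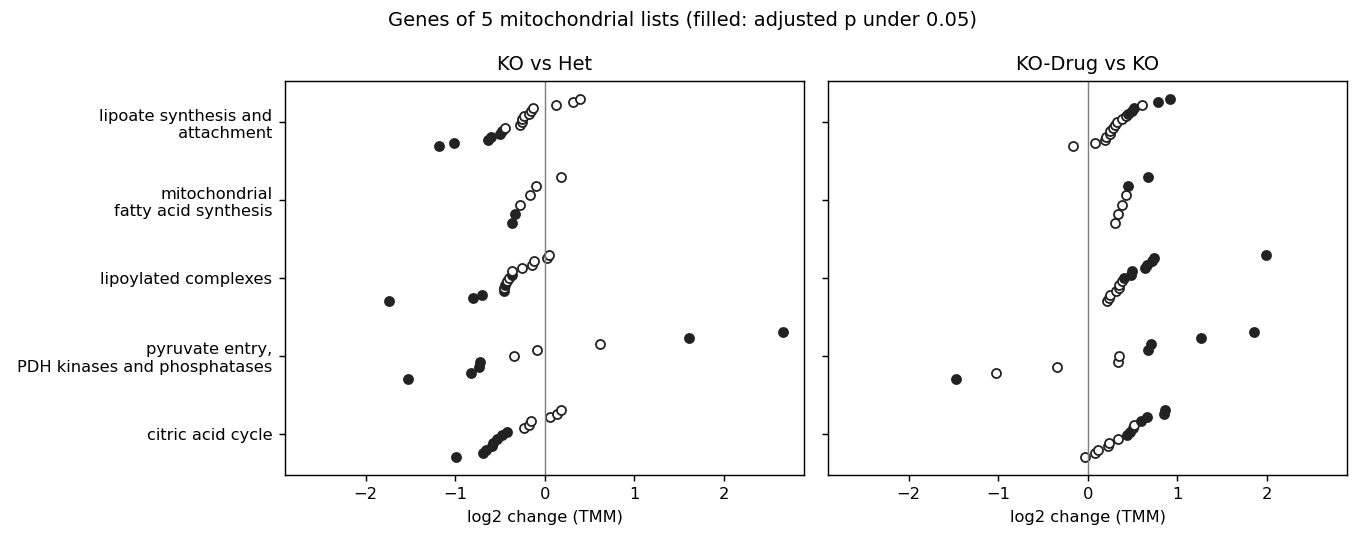
The log2 change under TMM scaling is plotted for each tested gene of 5 lists, members included and Ogdhl left out, filled where the adjusted p is under 0.05. Called genes of the lipoate, fatty acid synthesis and citric acid cycle lists lie left of 0 in KO against Het and right of 0 in KO-Drug against KO livers, and the kinase list holds called genes on both sides; total counts turn part of these directions.

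A further 3 lists bear on Mtf1, Cdkn2a and copper itself. All 3 MTF1 targets were called higher in KO than in Het livers, beside 23.0% of all genes. Mt1, whose promoter is shown above, had 3464, 2864, 2552 and 2301 CPM in KO-Drug livers, 1423, 1765, 2392 and 2373 CPM in KO livers, and 28.4, 11.5, 60.5 and 241 CPM in Het livers. Het 4 was the highest of the Het livers, and every Atp7b-/- liver was above it. The log2 change was 4.54 in KO against Het livers (SE 0.74, adjusted p = 0.000464, edgeR), 5.88 without Het 4, and DESeq2 gave no adjusted p for it. Mt2 changed by 4.69 (SE 0.99, adjusted p = 0.0023, edgeR; 6.81 without Het 4) and Slc30a1, a zinc exporter, by 1.09 (SE 0.20, adjusted p = 0.00116, edgeR). The changes of Mt1, Mt2 and Slc30a1 in KO-Drug against KO livers were 0.49, 0.48 and 0.27 (adjusted p = 0.631, 0.729 and 0.364, edgeR), and that of Slc30a1 turned to -0.062 under total counts. Mtf1 itself, with -0.13, was not called in KO against Het livers.

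Of 9 other genes of cuproptosis and copper entry, 2 were called higher and 3 lower in KO against Het livers, beside 23.0% and 17.7% of all genes. In KO-Drug against KO livers 3 were called lower, beside 11.0% of all genes. Among those lower in KO against Het livers is Atp7b (-2.61), the knocked-out gene itself, so its call reflects the genotype and is not a finding about the list. Slc31a1, the high-affinity copper importer CTR1, averaged 74.1 CPM in KO-Drug, 72.9 CPM in KO and 152 CPM in Het livers. Its log2 change was -1.06 in KO against Het livers (SE 0.18, adjusted p = 0.00054, edgeR) and 0.02 in KO-Drug against KO livers (SE 0.18, adjusted p = 0.943, edgeR), which turned to -0.32 under total counts. Steap4, a metal reductase, had 321, 144, 172 and 198 CPM in KO-Drug livers, 1140, 833, 306 and 430.4 CPM in KO livers, and 117, 239, 178 and 265 CPM in Het livers, with log2 changes of 1.76 (adjusted p = 0.0037, edgeR) and -1.70 (adjusted p = 0.011, edgeR).

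Of 7 tested genes among the other CDK inhibitors and the ARF-p53 arm, 3 were called higher in KO against Het livers, beside 23.0% of all genes. Cdkn2c, a relative of INK4A, averaged 9.20 CPM in KO-Drug, 10.3 CPM in KO and 3.16 CPM in Het livers. Its log2 change was 1.70 in KO against Het livers (SE 0.15, adjusted p = 3.94e-06, edgeR) and -0.16 in KO-Drug against KO livers (adjusted p = 0.457, edgeR). Cdkn1a changed by 2.37 (SE 0.66, adjusted p = 0.0121, edgeR) and Mdm2, the p53 ligase that ARF binds, by 1.25 (SE 0.15, adjusted p = 4.58e-05, edgeR) in KO against Het livers. Mdm2 was called lower in KO-Drug than in KO livers (-0.45, adjusted p = 0.0453, edgeR), a call that held in 7 of 21 alternatives. Cdkn2b, the neighbour of Cdkn2a, had at most 14 counts in a library and was not tested.

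The median coefficient of variation of CPM over the 8 members was 13.1% in KO-Drug livers (9.29% for Fdx1 to 24.8% for Lipt1), 6.26% in KO livers (3.59% for Pdha1 to 30.4% for Lipt1) and 12.4% in Het livers (4.69% for Pdhb to 21.2% for Fdx1).

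For each member, the genes with the most similar profile were taken as those with the smallest root mean square difference of gene-centred log2 CPM over the 12 libraries, among 12771 candidates. For Fdx1 these were Rmnd1 (0.141) and AU022252 (0.145), against a spread of Fdx1 about its own mean of 0.524 on the same scale. For Dlat they were Qprt (0.160) and Cs (0.173), against 0.380 for Dlat itself, and Cs encodes citrate synthase, which uses the acetyl-CoA that the complex makes. For Pdha1 they were Gstt1 (0.0932) and Stard10 (0.1003), for Pdhb the nearest was Imp3 (0.0947), and for Dld they were Pum3 (0.0823) and Nsun2 (0.0867). For Lias they were Znhit1 (0.0640) and Exosc7 (0.0787), for Lipt1 Sepsecs (0.181) and Shmt1 (0.181), and for Mtf1 Mrs2 (0.0866) and Bmpr1a (0.0936).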

How the data were processed

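RNA of whole liver from 12 mice was measured by RNA-seq, after RNeasy extraction and TruSeq Stranded Total RNA library preparation per the labels' protocols. The submitters' processing notes name build mm10, StringTie 2.1.3b and FastQC 0.11.7. Not given in the sources used here are the aligner, the annotation and whether counting used strand. In 1 table the authors deposited read counts per gene, not normalized, and FPKM per gene (per kilobase of gene model and 1e6 fragments), both per the file headers; 98.9% of FPKM to count ratios over 8164 genes lay within 5% of 1 factor per library. In the table, 3 columns without a name (values for 4 genes) were not used. Of 24532 genes, 24462 (99.7%) matched RefSeq (GRCm38.p6) by gene number.

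The 9 members and all lists were chosen with earlier results of these data known. The filterByExpr function (at least 10 counts, and 15 in total) set aside 11153 genes. All 12 libraries entered 1 edgeR 4.0.16 quasi-likelihood fit (R 4.3.3) with TMM scaling, group means and two-sided tests, after a check of the code on simulated counts. Each comparison was recomputed under 21 alternatives (DESeq2 1.42.0, limma 3.58.1 and the deposited FPKM with 0.1 added before log2 among them), and list genes were named for the smallest adjusted p, up to 3 per list in KO against Het and up to 2 in KO-Drug against KO livers; other called genes were named after their values were seen. Ratios were tested by exact permutation of log2 values.

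Nothing in the labels says that equal animal numbers share a litter or day, and p-values measure the spread between these libraries. No pair of libraries had near-identical counts. Protein sequences were not used here, and some genes that this rule names are not reported here.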

Additional observations from a re-analysis of the deposited data

Results flagged for a closer look

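Over 27 groups of 4 libraries (the 9 members in each group), 2 held a library whose gap to its nearest neighbour exceeded 0.829 of the group's range, and chance flags about 1 group in 20. Fdx1 stood at 42.1 CPM in KO 5, above the other KO livers at 37.4 to 38.0 CPM, yet below every KO-Drug and Het liver. Cdkn2a stood at 0.187 CPM in KO 4, from 4 counts, and at 0 in the other KO livers. With those tied at 0, any count in KO 4 would have been flagged. Its KO-Drug and Het groups, all at 0, could not be flagged, so the rate of 1 in 20 does not apply to Cdkn2a.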

How the results depend on the processing

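Of the calls on members, those of Fdx1 in KO against Het and KO-Drug against KO livers and that of Dlat in KO-Drug against Het livers held in all 21 alternatives. The number of members called was 3 to 4 in KO against Het livers (under total counts and on FPKM 2 higher, Lias and Dlat, and 1 lower, Fdx1), 1 to 5 in KO-Drug against KO livers (1 under total counts and 1 on deposited FPKM, 3 to 5 with 1 library left out) and 1 throughout in KO-Drug against Het livers. The number of all genes called in KO-Drug against KO livers was 2654, with 4255 under total counts, 4781 on FPKM, and 1599 (without KO-Drug 3) to 2994 with 1 library left out (1639 without KO 4). In KO against Het livers it was 5448 (3693 to 7601) and in KO-Drug against Het livers 2865 (2258 to 3471).

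Animal numbers were not taken to pair the libraries: same-numbered libraries correlated at -0.03 to 0.14 in their deviations from the group means, and in KO-Drug and Het livers 3 of 4 numbers correlated best with their own, as did both shared numbers in KO-Drug and KO livers (0.11 against 0.074, and 0.088 against 0.056) and neither in KO and Het livers. With the number as a replicate block, 3693 genes were called in KO against Het, 1741 in KO-Drug against KO and 2516 in KO-Drug against Het livers. The numbers 5 and 6 occur only among KO livers. Under the block, both comparisons with KO livers therefore rest on KO 2 and KO 4. Among members the block ended the calls of Dld in KO against Het livers and of Dlat and Pdha1 in KO-Drug against KO livers, and Lipt1 passed in both. Leaving out KO 5 and KO 6 with no block also ended these calls of Dld and Dlat. It kept that of Pdha1, and Lipt1 then passed only in KO-Drug against KO livers.

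Total counts turned these log2 changes, with the FPKM value after each. In KO against Het livers they were Lias 0.34 and 0.36, Lipt1 0.084 and 0.044, Dld 0.17 and 0.19, Pdhb 0.065 and 0.077, Mtf1 0.38 and 0.40, Mecr 0.20 and 0.21, Mcat 0.14 and 0.17, Ndufab1 0.23 and 0.26, and Oxsm 0.34 and 0.38. In KO-Drug against KO livers they were Lias -0.092 and -0.11, Dld -0.033 and -0.054, Mtf1 -0.26 and -0.28, Mecr -0.038 and -0.053, Atp7b -0.25 and -0.29, Slc31a1 -0.32 and -0.37, and Slc30a1 -0.062 and -0.084. In KO-Drug against Het livers they were Dld 0.14 and 0.13, Pdha1 0.14 and 0.13, and Mtf1 0.12 and 0.12. FPKM are themselves scaled by total fragments, so these settings are not independent. With limma-voom, Dlat turned to -0.052 in KO against Het livers, Pdha1 to 0.0054 in KO-Drug against Het livers, and Atp7b and Slc31a1 to -0.11 and -0.087 in KO-Drug against KO livers.

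With 1 library left out, the changes that turned were all uncalled ones: Dlat in KO against Het livers (-0.045 to 0.12), Lias (-0.0081 to 0.14), Lipt1 (-0.0069 to 0.28), Dld (-0.13 to 0.027), Pdha1 (-0.13 to 0.050) and Pdhb (-0.035 to 0.10) in KO-Drug against Het livers, and Atp7b (-0.22 to 0.28) and Slc31a1 (-0.21 to 0.13) in KO-Drug against KO livers. The cause of these turns was not tested. Cdkn2a, with at most 4 counts in a library, was under the filter on low counts.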
